A study of Caenorhabditis elegans with 6 samples.

Results

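Transcripts of 10 genes that drive cell division, 6 cyclins and 4 mitotic kinases, were followed in whole worms with and without the herbicide diquat. The genes were chosen by name: every row of the deposited gene table whose symbol was cyb-1, cyb-2.1, cyb-2.2, cyb-3, cya-1, cye-1, cdk-1, air-1, air-2 or plk-1 was taken. This gave 14 of the 20473 rows. 10 of the 14 carry a WormBase identifier, 1 for each gene, and the other 4 are loci assembled from the reads that bear the symbol cya-1. The worms were wild-type N2 Caenorhabditis elegans held for 72 h at 20 °C in diquat dibromide monohydrate at 0 µg/L (control, 3 libraries) or 100 µg/L (diquat, 3 libraries). Diquat is a bipyridyl compound that cycles between redox states and yields superoxide. The sources used here do not give the stage and age of the worms. They also do not say whether the replicates were grown apart, and the p-values therefore rest on the spread among these libraries alone, which may be technical.

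Cyclins are the regulatory partners of cyclin-dependent kinases (CDKs). Cyclin E (cye-1) acts with CDK-2 at entry into S phase, and cyclins A and B (cya-1 and the cyb genes) act with CDK-1 at entry into and passage through mitosis and meiosis, after which they are destroyed by the anaphase-promoting complex. The Aurora kinases AIR-1 and AIR-2 and the Polo kinase PLK-1 build the spindle and the centrosomes and control chromosome segregation and cytokinesis. In an adult hermaphrodite the somatic cells no longer divide, and these transcripts are made mainly in the germline, whose oocytes load them into the embryo.

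Library totals lay between 23390547 and 24593469 counts, and the 10 genes together took 0.231% to 0.263% of them. Markers of whole adult worms were present. Summed over 13 oocyte genes the level was 12256 to 14305 CPM (counts scaled to library size with TMM factors) in control and 10678 to 14767 CPM with diquat, over 15 germline genes 3629 to 3994 and 3261 to 4313 CPM, over 9 intestinal genes 97667 to 139305 and 99841 to 136400 CPM, over 7 body wall muscle genes 4292 to 5028 and 3327 to 4764 CPM, over 9 neuronal genes 608 to 687 and 521 to 628 CPM, and over 8 epidermal genes 1321 to 1582 and 997 to 1265 CPM. The 11 embryo genes summed to 91.7 to 95.2 CPM in control and 99.2 to 115 CPM with diquat, and the 15 sperm genes to 43.8 to 51.0 and 17.1 to 23.3 CPM, so both of these sums were apart between the groups, as was the epidermal sum. Of single tested genes 10.7% were apart in either direction. In the edgeR test described below, 7 of the 10 sperm genes that could be tested were called lower (0.913% of all tested genes). Of the 7 embryo genes that could be tested 0 were called. The epidermal sum was mostly col-19, a cuticle collagen (means 1057 CPM in control and 757 CPM with diquat), while 6 of the 8 epidermal genes had a log2 fold change above 0 and their median was 0.07. No marker list gene was at 0 counts in all libraries. In whole animals, fewer cells of a type and less RNA per cell cannot be told apart.

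The genes differed widely in level. By FPKM (a count scaled by gene length and by library depth, the authors' deposited value), cyb-3 was the most abundant in all 6 libraries, at 711 to 828 FPKM, and ranked 175 of the 20473 rows by its mean. cyb-1 followed at 250 to 291 FPKM, so that the mean of cyb-3 was 2.90 times that of cyb-1. cdk-1 came next at 123 to 156 FPKM. These 3 ranges did not overlap.

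Below them, plk-1 (96.2 to 120 FPKM) and air-1 (90.2 to 120 FPKM) overlapped, with plk-1 above air-1 in 5 of 6 libraries. cyb-2.2 lay at 59.8 to 83.4 FPKM, clear of both air-1 above it and cyb-2.1 (38.4 to 52.5 FPKM) beneath it. cyb-2.1 and cye-1 (36.3 to 50.7 FPKM) could not be ordered, since cyb-2.1 was above in only 4 of 6 libraries. air-2 (24.5 to 37.6 FPKM) stood below cye-1 and above cya-1 (16.9 to 31.4 FPKM) in all 6 libraries, although the ranges of both neighbouring pairs overlapped. cya-1, the lowest of the 10, still ranked 3659 in the table.

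The comparison between diquat and control asks whether the transcripts of the division machinery were changed by the herbicide. None of the 10 genes changed by edgeR's quasi-likelihood test with Benjamini-Hochberg adjustment over 13252 tested genes (adjusted p = 0.819 to 1.00 in edgeR), and 0 of the 10 had an unadjusted p under 0.05. DESeq2 and limma-voom also called 0 of them. In that edgeR test 0% of all tested genes were called higher and 0.913% lower. The 10 log2 fold changes ran from -0.04 (cyb-3) to 0.29 (cya-1), 9 of them above 0, with a median of 0.11 beside a median of 0.01 over all tested genes. With the replicate number as a block, which compares same-numbered libraries, 1 of the 10 was called higher (cya-1) and 0 lower, where 4.51% of all tested genes were called higher and 4% lower (8.51% in either direction).

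**Figure D1:**
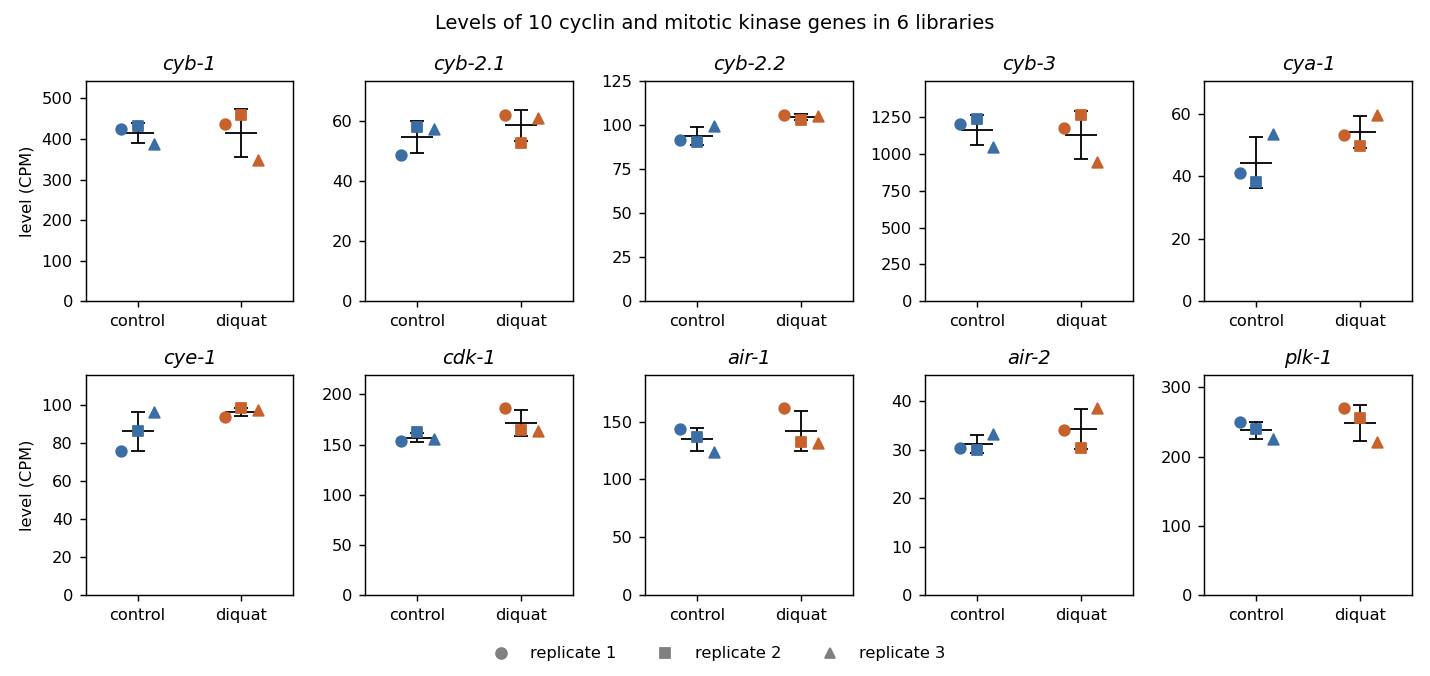
Level of each gene in CPM (vertical axes, starting at 0 and differing in scale) in the 3 control and 3 diquat libraries. Points are libraries, with the shape giving the replicate number, and bars are the mean and SD of 3. The groups overlap for 8 of the 10 genes, and those of cyb-2.2 and cdk-1 do not.

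Among the B-type cyclins, cyb-3 (WBGene00000868, chromosome V, 15395696 to 15397353, WBcel235, protein coding, 5 exons), whose product is needed for chromosome segregation in the embryo, was at 1204, 1238 and 1044 CPM in control and 1173, 1265 and 946 CPM with diquat. The lowest library of each group was number 3, and the groups overlapped. Its log2 fold change was -0.04 (standard error 0.14, 95% interval -0.34 to 0.25, edgeR adjusted p = 0.956). As a fold, the interval runs from 0.790 to 1.19 times the control level.

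cyb-1 (WBGene00000865, chromosome IV, 10735216 to 10737177, 5 or 6 exons by transcript), the cyclin B closest to that of other animals, was at 425, 433 and 387 CPM in control and 436, 460 and 349 CPM with diquat. Again number 3 was lowest in both groups, and the diquat libraries spanned the control ones. The means were 415 ± 24.5 and 415 ± 58.3 CPM (SD, n = 3 in each group), a log2 fold change of 0.0003 with a 95% interval of -0.27 to 0.27 (edgeR adjusted p = 1.00).

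cyb-2.1 (chromosome IV, 10985985 to 10987426) and cyb-2.2 (chromosome I, 4114861 to 4116370) are close copies with 4 exons each, and how the authors' counting placed reads that fit both is not given, so the split between them is uncertain. cyb-2.1 was at 48.6, 58.0 and 57.4 CPM in control and 62.1, 52.6 and 60.8 CPM with diquat, with overlapping groups. cyb-2.2 was at 91.9, 90.3 and 99.8 CPM in control and 106, 103 and 105 CPM with diquat, so all diquat libraries were above all control libraries on this scale. This gave a log2 fold change of 0.16 for cyb-2.2 (standard error 0.10, 95% interval -0.07 to 0.38, edgeR adjusted p = 0.819) and of 0.10 for cyb-2.1 (95% interval -0.16 to 0.36, edgeR adjusted p = 0.879). Summed into 1 row, the pair gave 0.14 (edgeR adjusted p = 0.821, and 0.208 with the block). The FPKM of cyb-2.2 was 1.42 to 1.80 times that of cyb-2.1 over the 6 libraries, with means of 1.59 ± 0.163 in control and 1.65 ± 0.126 with diquat (SD, n = 3).

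The shares of the B-type cyclins overlapped between the groups. cyb-3 made up 68.4%, 68.4% and 65.9% of their summed FPKM in control and 66.2%, 67.6% and 64.8% with diquat. The ratio of cyb-3 to cyb-1 FPKM lay between 2.83 and 3.02 in all libraries. The means of that ratio, 2.95 ± 0.0987 and 2.86 ± 0.0383 (SD, n = 3), came from ranges that overlapped.

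cya-1 (WBGene00000863, chromosome III, 9106699 to 9109272, minus strand, 6 exons) encodes a cyclin A and showed the largest difference of the 10. It was at 41.1, 38.2 and 53.5 CPM in control and 53.2, 49.7 and 59.7 CPM with diquat. Each diquat library was above the control library of its number, but control 3 was above diquat 1 and diquat 2, so the groups overlapped. Its log2 fold change was 0.29 (standard error 0.14, 95% interval -0.01 to 0.60), a fold of 1.22, which did not pass the test (edgeR adjusted p = 0.819).

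With the block cya-1 rose, with a log2 fold change of 0.30 (standard error 0.08, 95% interval 0.14 to 0.46, blocked edgeR adjusted p = 0.0165). The differences within pairs 1, 2 and 3 were 0.37, 0.38 and 0.16 in log2 CPM. A rise in all 3 pairs was found in 3066 of the tested genes (23.1%) and in 5 of the 10, namely cyb-2.2, cya-1, cye-1, cdk-1 and air-2. The blocked call was made by limma-voom as well (adjusted p = 0.0166) and missed with DESeq2 (adjusted p = 0.0614). It was lost without pair 1 (blocked edgeR adjusted p = 0.30) or pair 2 (0.197), and was kept without pair 3 (0.00850).

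The 4 assembled loci with the symbol cya-1, for which the table gives no position, held few reads. Together they had 159, 136 and 153 counts in control and 143, 109 and 155 with diquat, against 838 to 1539 counts in the WormBase row, or 9.1% to 14% of the 5 rows. For 3 of them a test was possible, and none changed in edgeR with or without the block. The locus with the lowest counts, 4 to 11 per library, was below the count filter. With all 5 rows summed, the log2 fold change of cya-1 was 0.24 (edgeR adjusted p = 0.820) and 0.25 with the block (adjusted p = 0.0386). The annotated gene also overlaps dos-1 on the opposite strand at its end. dos-1 had 12 to 24 counts per library, so reads from it could be a small part of those of cya-1 if strand was not used in counting.

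cye-1 (WBGene00000871, chromosome I, 6780799 to 6784397, 8 exons), the cyclin E of S-phase entry and of germline proliferation, was at 76.2, 86.3 and 96.6 CPM in control and 94.0, 98.4 and 97.3 CPM with diquat. The diquat libraries were close together, and control 3 lay among them. Its log2 fold change was 0.16 (95% interval -0.09 to 0.41, edgeR adjusted p = 0.820; 0.156 with the block). Without pair 3 the blocked fit called it higher (log2 fold change 0.25, blocked edgeR adjusted p = 0.0339).

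cdk-1 (WBGene00000405, chromosome III, 9747472 to 9748852, 5 exons), the catalytic partner of the A- and B-type cyclins, was at 153, 162 and 155 CPM in control and 186, 164 and 164 CPM with diquat. The groups did not overlap, with diquat 1 the highest library and diquat 2 and 3 just above control 2. The log2 fold change was 0.13 (95% interval -0.10 to 0.36, edgeR adjusted p = 0.821; 0.263 with the block). cdk-1 and cyb-2.2 were the 2 of 10 genes whose groups did not overlap in CPM, both higher with diquat, as were 4.07% of all tested genes, while 6.68% were apart in the other direction. In counts and in FPKM the groups of both genes overlapped. The 4 B-type cyclins summed to 9.67, 9.31 and 8.47 times the FPKM of cdk-1 in control and to 7.93, 9.54 and 7.40 times with diquat, which overlap.

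Among the kinases that act on the spindle, plk-1 (WBGene00004042, chromosome III, 8101348 to 8104069, 6 exons), the Polo kinase of centrosome maturation and nuclear envelope breakdown, was at 249, 240 and 225 CPM in control and 270, 256 and 220 CPM with diquat, with number 3 lowest in both groups. Its log2 fold change was 0.06 (95% interval -0.19 to 0.31, edgeR adjusted p = 0.924). air-1 (WBGene00000098, chromosome V, 8221488 to 8223582, 7 exons), the Aurora A kinase of the centrosome, was at 143, 137 and 123 CPM in control and 161, 132 and 131 CPM with diquat. Its mean was raised by diquat 1, and without that library the log2 fold change went from 0.07 to -0.02 (edgeR adjusted p = 0.909 and 0.976).

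air-2 (WBGene00000099, chromosome I, 5937195 to 5938881, 5 or 6 exons by transcript), the Aurora B kinase of the chromosomal passenger complex, was at 30.5, 29.9 and 33.3 CPM in control and 34.1, 30.4 and 38.6 CPM with diquat. Here number 3 was the highest in both groups, the reverse of air-1, and the groups overlapped. The log2 fold change was 0.14 (95% interval -0.14 to 0.42, edgeR adjusted p = 0.838; 0.368 with the block). air-1 stood at 2.80 to 3.86 times the FPKM of air-2.

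**Figure D2:**
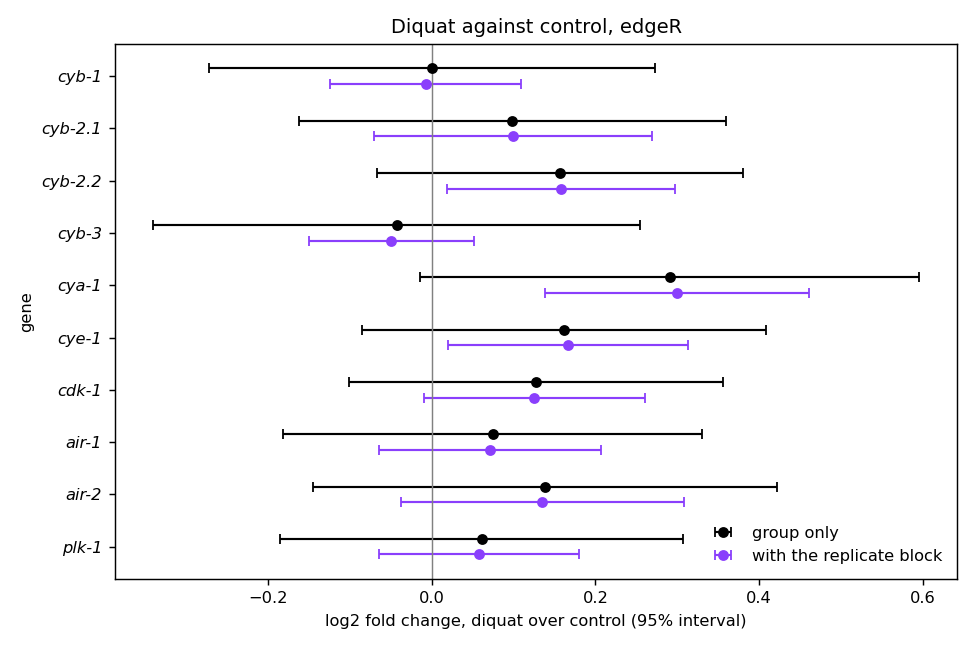
Log2 fold change of diquat over control (horizontal axis) with its 95% interval for each gene, from edgeR with group as the only term (black) and with the replicate number as a block (purple). Without the block all 10 intervals hold 0, and with it those of cya-1, cye-1 and cyb-2.2 do not, of which cya-1 alone passed after adjustment.

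Within each group, library 3 differed from libraries 1 and 2 in ways that divided the 10 genes. In log2 CPM, cya-1 was higher in number 3 by 0.43 in control and 0.22 with diquat, air-2 by 0.14 and 0.26, cyb-2.1 by 0.11 and 0.09, cye-1 by 0.25 and 0.02 and cyb-2.2 by 0.13 and 0.01. cyb-3 was at -0.23 and -0.36, cyb-1 at -0.15 and -0.36, plk-1 at -0.12 and -0.25, air-1 at -0.18 and -0.15 and cdk-1 at -0.02 and -0.10. All 10 genes had the same sign in both groups, as had 74.5% of all tested genes.

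The 5 genes that were low in number 3 are the 5 with the highest FPKM. The ratio of cyb-3 to cya-1 FPKM was therefore 41.8, 46.3 and 27.9 in control and 31.5, 36.4 and 22.6 with diquat, lowest in number 3 of each group. The summed oocyte markers were lowest in number 3 as well, at 13567, 14305 and 12256 CPM in control and 13731, 14767 and 10678 CPM with diquat, and so were the germline markers, at 3803, 3994 and 3629 and at 3945, 4313 and 3261 CPM. Sums of body wall muscle markers (4938, 5028 and 4292 CPM in control, 4060, 4764 and 3327 with diquat) were lowest in number 3 too. So were those of neurons (675, 687 and 608, and 624, 628 and 521) and of epidermis (1424, 1582 and 1321, and 1236, 1265 and 997). The intestinal sum was lowest in number 1 of each group, and the embryo sum was highest in number 3. The sperm sum was lowest in number 1 in control and in number 3 with diquat. The part of cell types or of library handling in the levels of the 10 genes was not tested.

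**Figure D3:**
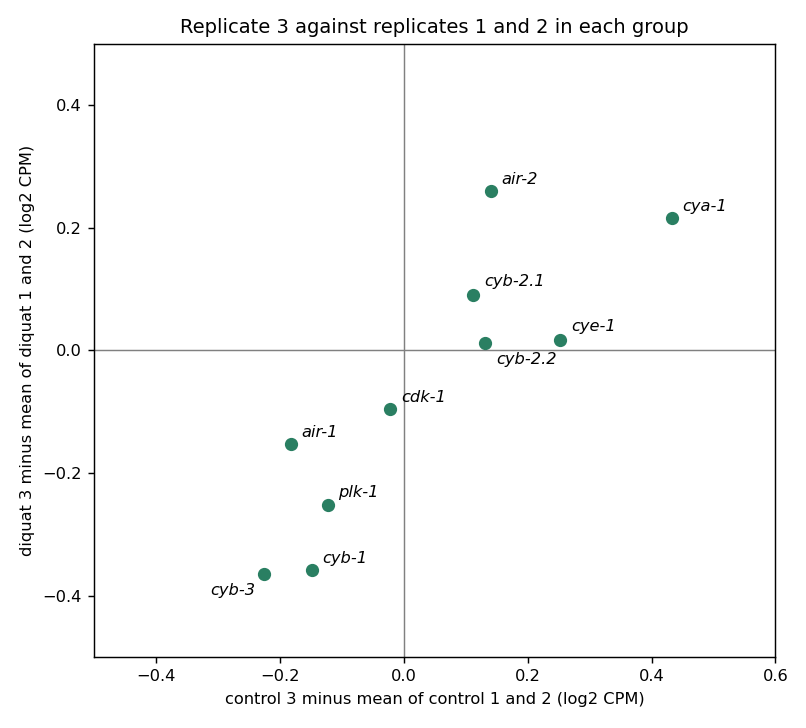
Difference of replicate 3 from the mean of replicates 1 and 2 in log2 CPM, in control (horizontal axis) and with diquat (vertical axis), 1 point per gene. 5 genes lie above 0 on both axes (cya-1, air-2, cyb-2.1, cye-1, cyb-2.2) and 5 below 0 on both (cyb-3, cyb-1, plk-1, air-1, cdk-1).

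The genes whose profile over the 6 libraries was nearest to the mean of the 10 were sought among 5997 named genes with a mean of at least 50 counts. By the mean absolute difference of centred log2 CPM the nearest were hpo-3 (0.021), rnf-121 (0.023), cas-2 (0.023), lin-26 (0.023) and apa-2 (0.024), where the median gene was at 0.15. Their log2 fold changes were between 0.07 (cas-2) and 0.15 (apa-2). As the choice used all 6 libraries, fold changes near those of the 10 follow from it and are not a separate result. Of the 10 themselves cdk-1 was closest to the mean profile (0.035) and cya-1 (0.15) and cyb-3 (0.15) were farthest.

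Around the 10 genes stand the regulators, substrates and partners through which they act, in 7 lists with 90 genes that could be tested. None of the 90 changed in edgeR without the block, in DESeq2 or in limma-voom, 2 of them (3 with limma-voom) were higher at an unadjusted p under 0.05, and their median log2 fold change was 0.11. With the block 14 of the 90 rose and 0 fell, where 4.51% of all tested genes were called higher and 4% lower. In CPM, 1 of these 14 (cdk-2) had groups that did not overlap. Of the 90, 8 were apart and higher with diquat and 0 were apart and lower. Over all tested genes these shares were 4.07% and 6.68%. The 14 have a median exon length of 2633 nt, the 90 of 2044.5 nt, the 10 cyclins and kinases of 1399.5 nt and all tested genes with a length of 1416 nt. In the ninth decile by exon length (2376 to 3243 nt) 10.8% of tested genes were called higher with the block. In the eighth (1928 to 2375 nt) 7.07% were.

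The spindle assembly checkpoint, which holds back anaphase until chromosomes are attached, had 5 of 12 genes higher with the block and a median log2 fold change of 0.17, where 4.51% of all tested genes were called higher. Its median exon length was 2397 nt, and with the length trend removed as well 1 of the 12 was higher and the median was 0.096. san-1 (16.3 ± 3.49 CPM in control, 23.5 ± 7.35 with diquat, SD, n = 3), a checkpoint protein of the Mad3 family, rose by 0.51 on the log2 scale (blocked edgeR adjusted p = 0.00118). mdf-1, the worm Mad1, rose by 0.29, and the checkpoint or kinetochore proteins hcp-1, hcp-2 and rod-1 rose by 0.28, 0.29 and 0.24 (blocked edgeR adjusted p = 0.0145 to 0.0472). The mdf-1 call was lost without pair 1, 2 or 3 (blocked edgeR adjusted p = 0.273, 0.112 and 0.128) and with DESeq2 and the block (0.135). Of the 14 genes, san-1 alone kept the call without pair 1 (adjusted p = 0.0480).

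The kinetochore list, of proteins that join chromosomes to microtubules, had 3 of 13 genes higher with the block (4.51% of all tested genes). These were ndc-80, a microtubule-binding subunit (log2 fold change 0.33), knl-2, which loads centromeric chromatin (0.31), and the condensin subunit hcp-6 (0.30), with blocked edgeR adjusted p of 0.0157 to 0.0238. With the length trend removed as well, ndc-80 kept its call (edgeR adjusted p = 0.0175), and knl-2 (0.0742) and hcp-6 (0.113) lost theirs. In that fit kbp-3 (edgeR adjusted p = 0.0361) and kbp-5 (0.0356), not called with the block alone, passed. They are mentioned because of this result. The list thus again had 3 of 13 genes higher, where 3.44% of all tested genes were. Its median log2 fold change was 0.21 with the block and 0.18 in that fit, and its median exon length was 1230 nt. DESeq2 with the block called none of ndc-80, knl-2 and hcp-6 (adjusted p = 0.0820, 0.0716 and 0.106). In the centrosome list, 2 of 10 rose (4.51% of all tested genes), spd-5, the scaffold of the pericentriolar material (0.33, blocked edgeR adjusted p = 0.00360), and gip-2, of the gamma-tubulin complex (0.41, blocked edgeR adjusted p = 0.00935). DESeq2 with the block called spd-5 (adjusted p = 0.00791) and missed gip-2 (0.0680). All 10 centrosome genes had a log2 fold change above 0 without the block, as had 52.7% of all tested genes. Their median exon length of 2468.5 nt falls in the ninth length decile, where the median over all tested genes was 0.09. Summed, they were highest in number 3 of each group, at 403, 421 and 507 CPM in control and 483, 463 and 553 CPM with diquat, and 13 of the 14 called list genes were likewise above libraries 1 and 2 in number 3 of both groups. A difference of one sign in both groups, up or down, was found in 71 of the 90 list genes and in 74.5% of all tested genes.

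Among other cyclins, kinases and CDK inhibitors, 2 of 16 rose with the block, where 4.51% of all tested genes were called higher. cdk-2, the partner of cyclin E, was at 13.3 ± 0.556 CPM in control and 17.6 ± 2.44 with diquat (n = 3; blocked log2 fold change 0.40, edgeR adjusted p = 0.0199). Its call was lost without pair 1 or 3 (blocked edgeR adjusted p = 0.133 and 0.246) and with DESeq2 and the block (0.131). It was kept without pair 2 (0.0167), with the length trend removed (0.0317) and with limma-voom (0.0178). The other gene that rose was cdk-8, of the Mediator complex (0.31, blocked edgeR adjusted p = 0.0366). Without the block its log2 fold change was 0.33, and -0.0057 when diquat 3 was left out. The blocked call was lost without pair 1, 2 or 3 (edgeR adjusted p = 0.181, 0.0545 and 0.388), with the length trend removed (0.0630) and with DESeq2 (0.183), and was kept with limma-voom (0.0295). plk-2, the closest relative of plk-1 and a kinase of meiotic pairing, was at 113 ± 7.43 and 113 ± 17.0 CPM (n = 3), and plk-1 was 1.95 to 2.24 times as abundant by FPKM. For the CDK inhibitor cki-1 the log2 fold change was -0.06 (edgeR adjusted p = 0.925).

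In the next 2 lists 1 gene each was called higher in the blocked test, where 4.51% of all tested genes were. Of 14 genes of CDK phosphorylation and cell cycle transcription, lin-35, the worm retinoblastoma protein, rose with the block (0.37, blocked edgeR adjusted p = 0.00276). wee-1.3, the kinase that keeps CDK-1 inactive in oocytes, stood at 0.11 on the same scale (edgeR adjusted p = 0.843; 0.381 with the block). Of 16 genes of the anaphase-promoting complex and cyclin destruction, emb-27, a subunit of the complex, was just past the threshold with the block (0.25, blocked edgeR adjusted p = 0.0498), and its activator fzy-1 stood at 0.06 (edgeR adjusted p = 0.925). The emb-27 call was lost without pair 1, 2 or 3 (blocked edgeR adjusted p = 0.273, 0.216 and 0.169) and with DESeq2 and the block (0.167).

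Of the 10 genes listed as partners of the Aurora and Polo kinases 0 passed in the blocked test, and their median was -0.01 without the block. Over all tested genes 4.51% were called higher and 4% lower in the blocked test. icp-1, which activates AIR-2, had a log2 fold change of 0.04, tpxl-1, which activates AIR-1, of -0.03, and spat-1, which with PLK-1 promotes mitotic entry, of 0.06 (edgeR adjusted p = 0.956, 0.973 and 0.930).

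**Figure D4:**
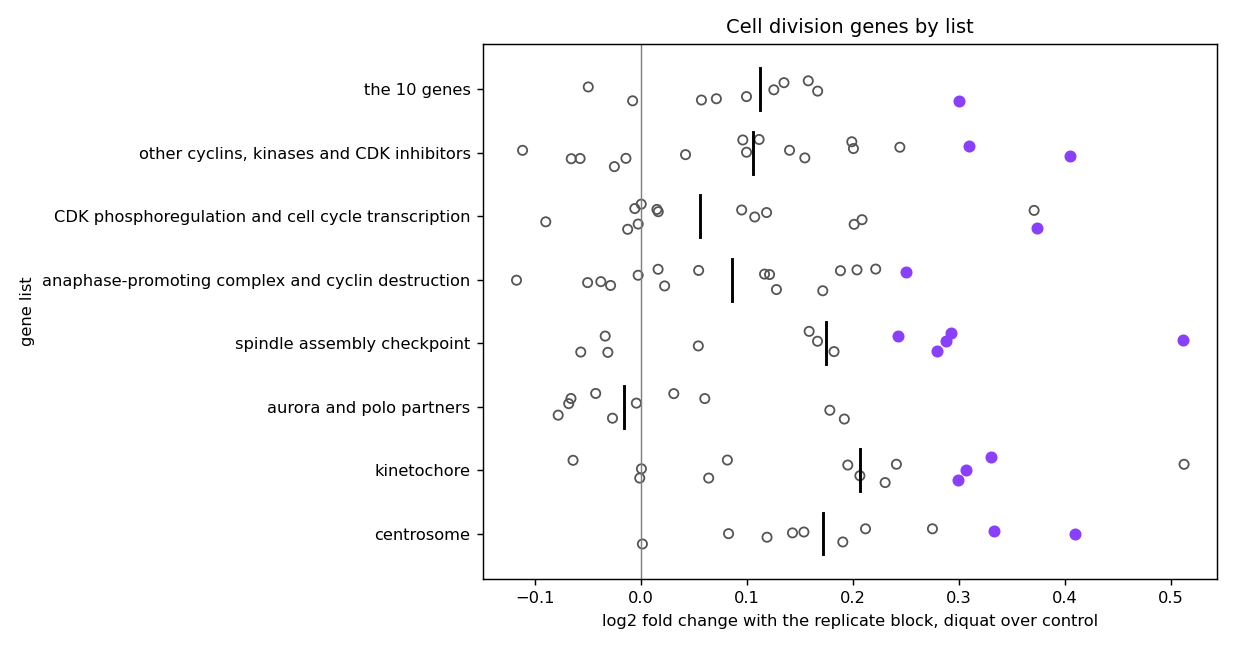
Log2 fold change of diquat over control with the replicate block (horizontal axis) for the 10 cyclin and kinase genes and for each of the 7 lists (vertical axis, with small vertical shifts to separate points). Filled points passed the blocked edgeR test, open points did not, and the bar is the median. The filled points are all to the right of 0, with 5 in the checkpoint list and 0 among the Aurora and Polo partners. In this fit 4.51% of all tested genes were called higher and 4% lower.

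Blocked calls moved with transcript length. In the blocked fit 0.153% of the genes in the shortest decile by exon length and 13.8% in the longest decile were called higher, and the median log2 fold changes were -0.12 and 0.12. cya-1 (2083 nt), cye-1 (2114 nt) and plk-1 (2289 nt) fall in the eighth decile, where the blocked median was 0.07 and 7.07% were called higher. With the length trend of each library removed and the block kept, cya-1 had a log2 fold change of 0.23 and kept its call (edgeR adjusted p = 0.0305), cye-1 went to 0.09 (0.414) and plk-1 to -0.03 (0.852). In that fit 3.44% of all genes were called higher and 6.17% lower (9.61% in either direction). Of the 90 list genes 9 were higher, 6 of them among the 14 (cdk-2, gip-2, lin-35, ndc-80, san-1 and spd-5), and 1 was lower, mpk-1, a MAP kinase of oocyte growth, named after its value was seen (log2 fold change -0.18, edgeR adjusted p = 0.0402).

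In the authors' deposited table the 10 genes had FDR values of 0.998 to 1.00, with log2 fold changes of mean FPKM from -0.0088 for cyb-3 to 0.33 for cya-1. The p-values of that table lay within 1% of those of DESeq2 without the block in all 18067 rows that have both, so the table and the DESeq2 result are not separate tests.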

How the data were processed

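Poly(A)-selected RNA of whole worms was sequenced in 3 control and 3 diquat libraries, per the labels. Tools listed in the submitters' processing notes, without their roles, are RSEM, StringTie 1.3.1, HISAT2 and fastp 0.18.0, and the build listed is WBcel235. The deposited table holds an estimated count per gene and library, in whole numbers, and the authors' FPKM, per the file headers. It also gives the authors' log2 fold change and the authors' p-value and FDR, by a test that the sources used here do not name but whose p-values match those of DESeq2 within 1%. They give neither the strand setting nor the handling of reads that fit several genes.

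Counts were tested with edgeR 4.0.16 (R 4.3.3): quasi-likelihood F-test, TMM scaling, default count filter, robust dispersion, group as the only term, Benjamini-Hochberg adjustment over all 13252 genes that passed the filter and a threshold of 0.05. All 10 genes and 3 of the 4 assembled loci passed. Standard errors were derived from F and the fold change and are approximate. Log2 CPM used a prior count of 2. A floor of 3 counts is 0.122 to 0.128 CPM, and no value of the 10 genes was near it. Intervals cover the spread between libraries only. The procedure was tested on simulated data with changes larger than those of the 10 genes and with no replicate effect. That test does not bear on power for small changes or on the blocked calls. DESeq2 1.42.0 and limma 3.58.1 (voom) were alternatives, with the others named in the closing section. Positions and exon lengths came from the WBcel235 annotation (Ensembl). Libraries of a group always differed by more than sampling noise (lowest chi-square per degree of freedom 15.5, for genes reaching 20 counts in both together).

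The labels number the libraries 1 to 3 in both groups. Deviations from the group mean in same-numbered libraries correlated across genes at 0.155, 0.200 and 0.459, so the numbers were taken to pair them. The first 2 values do not tell this pairing from the swapped one (control 1 with diquat 2, 0.208; control 2 with diquat 1, 0.088), so for these it rests on the labels.

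The genes and lists were chosen with earlier results of these data known. Named genes were the 10, then list genes past the threshold with or without the block (up to 6 a list), and plk-2, cdk-2, wee-1.3, cki-1, fzy-1, icp-1, tpxl-1 and spat-1 whatever their result. mpk-1, kbp-3 and kbp-5 were added for their result in the blocked fit with the length trend removed. No sequence was used here.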

Additional observations from a re-analysis of the deposited data

How the results depend on the processing

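Without the block, 0 of the 10 genes and 0 of the 90 list genes passed under DESeq2, limma-voom, RLE size factors, no filter on low counts, the length trend removed, and without any one of the 6 libraries. Under the replicate block, 1 of the 10 was higher with edgeR (1 with limma-voom, 1 with the length trend also removed, 0 with DESeq2), and 0 to 2 when a pair was left out. Of the list genes 14 were higher with the block, 15 with limma-voom and the block, 4 with DESeq2 and the block, 9 (and 1 lower) once the length trend was taken out too, and 1, 6 and 14 without pair 1, 2 and 3. DESeq2 and limma-voom with the block, the summed cya-1 rows, and the summed cyb-2 pair with the block were chosen after seeing the data.

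Over all tested genes 0 were higher and 121 lower. The counts were 598 and 530 with the block, 456 and 817 when the length trend was removed as well, 127 and 268 with DESeq2 and the block, and 606 and 541 with limma-voom and the block. 1 was higher with the length trend removed and 2 with DESeq2 or with no filter. Leaving out 1 library gave 0 to 1 higher and 27 to 116 lower. In the block without pair 1, 2 and 3 there were 15, 329 and 436 higher and 181, 333 and 482 lower.

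Some log2 fold changes changed sign, and none was past the threshold under the setting that turned it. cyb-1 was at -0.0078 with the block, -0.039 once the length trend was removed, -0.049 with both, -0.0076 with limma-voom, -0.0068 with limma-voom and the block, and -0.033 and -0.046 in the block without pair 1 and pair 2. With the length trend removed, and with it and the block, plk-1 was at -0.021 and -0.025, icp-1 at -0.030 and -0.039 and spat-1 at -0.027 and -0.026, and fzy-1 at -0.0022 with both. In the block without pair 1, cyb-2.1 was at -0.030 and cki-1 at 0.0053, without pair 2 icp-1 at -0.0063, and without pair 3 plk-2 at 0.060 and tpxl-1 at 0.049. plk-2 was at 0.0035 with DESeq2. Leaving out 1 library moved cyb-1 between -0.079 and 0.097, cyb-3 between -0.13 and 0.056, air-1 between -0.019 and 0.12, cdk-8, which passed with the block, between -0.0057 and 0.55, plk-2 between -0.078 and 0.10, icp-1 between -0.057 and 0.13, tpxl-1 between -0.16 and 0.088 and spat-1 between -0.035 and 0.12. The cause was not tested.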
